A study of Rattus norvegicus with 20 samples.

Results

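Sesamin and episesamin, lignans of sesame with a furofuran core, share every bond. They differ only in the spatial arrangement at 1 of the carbons that carry a methylenedioxyphenyl group, which makes them epimers. The livers of 5 rats fed episesamin were compared with those of 5 rats fed sesamin, 10 of the 20 arrays of the study. These arrays were chosen by their titles alone and no measured value entered the choice. All animals were male Sprague-Dawley rats, 4 weeks old when they arrived. They had 7 d to acclimatise before the diets began. There were 7 rats on each diet, lignan-free or with 0.2% by weight of sesamin, episesamin or sesamolin, and the diets lasted 15 d. Liver RNA of 5 rats per diet was hybridised, 1 Affymetrix expression array for each rat, the heaviest and the lightest rat of each diet having been left out. The 2 compounds were thus compared at the same dietary content and for the same time, as 1 pair. What the rats ate, absorbed or held in the liver was not measured on the arrays. The 5 lignan-free arrays are given as the background level, and the 5 sesamolin arrays entered the normalization, the filter and the estimate of the spread between rats.

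In the liver, fatty acids are activated to coenzyme A (CoA) esters and shortened by beta-oxidation in mitochondria and in peroxisomes. Carnitine acyltransferases and carnitine carriers move acyl groups between compartments, and acyl-CoA thioesterases cut the esters back to free acid and CoA. Many genes of these steps are targets of the nuclear receptor PPAR alpha, which binds fatty acids and drug-like ligands, and in rats they respond strongly to its activation. Foreign compounds also reach the receptors CAR and PXR, whose targets include cytochromes P450, esterases and conjugating enzymes.

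Levels below are normalized intensities, brought to 1 common distribution over the arrays, with means ± SD of 5 rats. A difference is episesamin minus sesamin on the scale log2(intensity + 5.85), ± its standard error, so a positive difference means a higher level with episesamin. Folds are computed on the same scale and understate the change of dim probe sets. Adjusted p-values come from limma's moderated test with the Benjamini-Hochberg method over all 11576 genes tested, and a gene with an adjusted p below 0.05 is said to have passed. The replicates are single rats, numbered 1 to 5 within a diet, and their number limits the precision.

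With episesamin, 12 of 26 peroxisomal and 11 of 30 mitochondrial fatty acid oxidation genes and 6 of 9 acyl-CoA thioesterases were higher than with sesamin, and none of them was lower. These lists share members, and the higher genes were 25 with each counted once. The genes that were lower formed a smaller, mixed set that held apolipoproteins, complement proteases and mitochondrial carbonic anhydrase. Of the 11576 genes, 142 passed (1.23% of all tested), 95 of them higher (0.821%) and 47 lower (0.406%) with episesamin. The difference reached 2-fold for 31 of the higher and 9 of the lower genes. The median difference was 0.77 among the higher genes and -0.58 among the lower ones, against 0.0003 over all genes tested. Among the higher genes, 90 of 95 had every episesamin array above every sesamin array, and 42 of the 47 lower genes were separated the other way. Such separation was found for 3.64% of all genes (2.15% higher and 1.49% lower). Of the genes that passed, 41 had further probe sets above the filter, 65 in all, and 60 of these had the same sign. For context, 50 genes (0.432%) passed between sesamin and the lignan-free diet and 593 (5.12%) between episesamin and the lignan-free diet. These counts share arrays with each other and with the comparison of the epimers. The counts of 95 and 47 fell to 45 and 20 with median scaling of the arrays and to 7 and 5 with no normalization between them. Arrays were also left out singly, and where a call is said below to be lost without certain arrays, each of them ended it on its own. In this way 62 to 90 genes were higher and 22 to 43 lower, the fewest without sesamin array 5. Episesamin array 5 came next for the higher genes, with 63 higher and 23 lower genes. The number of lower genes also fell more than 1.5-fold without sesamin array 3 (23), sesamin array 4 (23) or episesamin arrays 2 (30), 3 (31) or 4 (30).

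**Figure D1:**
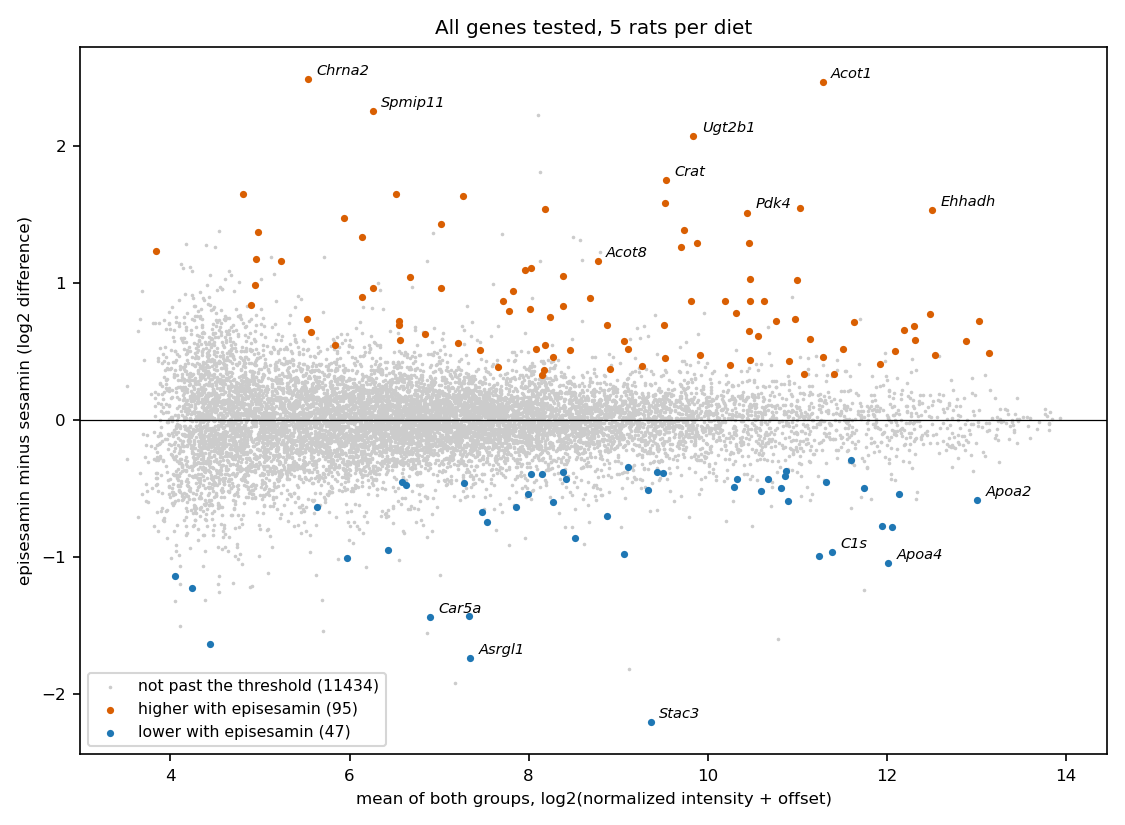
Difference between the epimers (log2, vertical axis) against the mean log2 level of both groups (horizontal axis) for the 11576 genes tested, 5 rats per diet. Coloured points are the 95 genes that passed as higher and the 47 that passed as lower with episesamin. Acot1 and Chrna2 lie at the top and Stac3 at the bottom.

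Mean raw intensity was 236 ± 27.6 with sesamin and 213 ± 36.1 with episesamin (SD, n = 5 each, two-sided exact permutation p = 0.31). The actin 3' to 5' signal ratio, a measure of RNA integrity, was 1.23 ± 0.0772 and 1.11 ± 0.191 on the log2 scale (exact permutation p = 0.214, where 0.00794 is the smallest p that 5 against 5 arrays allow). Without episesamin array 1, whose ratio was 1.43, that difference fell to -0.202 (exact permutation p = 0.0159). The hepatocyte markers Alb (13573 ± 1445 with sesamin and 14346 ± 1294 with episesamin) and Ttr stood near the top of the scale in both groups. Of the 11 hepatocyte markers 8 had a difference below 0 (median -0.04) and none passed in limma (1 higher and 3 lower at an unadjusted p below 0.05), with Apob at -0.30, Cps1 at -0.20 and Pck1 at -0.53. Among the 95 higher genes, sesamin array 1 was the highest sesamin array for 32 and sesamin array 5 the lowest for 33.

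Acyl-CoA thioesterases were the list with the highest median. Of 9 tested, 6 were higher with episesamin, none was lower and the median difference was 1.03. Acot1, the cytosolic enzyme that releases long-chain fatty acids from CoA, had the second largest difference of all genes that passed. Its levels were 2804, 1290, 1279, 848 and 330.1 on the sesamin arrays and 6181, 6181, 5588, 5494 and 5969 on the episesamin arrays, against 7.42 ± 3.39 without lignan. The sesamin livers thus spread widely while the episesamin livers lay close together, and the groups did not overlap. The difference was 2.47 ± 0.36, or 5.54-fold (adjusted p = 0.00106).

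Acot8, which hydrolyses acyl-CoA esters in peroxisomes, had the lowest adjusted p of all genes tested (5.11e-05). Its levels were 319, 265, 298, 289.8 and 262 with sesamin and 819, 662, 562, 644 and 578 with episesamin, a difference of 1.16 ± 0.11. The sesamin levels lay near those of the lignan-free rats (226 to 262), while all episesamin levels were far above. Acot7, a thioesterase of long-chain acyl-CoA best known from brain, was at 405 to 812 with sesamin and 1139 to 1451 with episesamin, a difference of 1.27 ± 0.17 (adjusted p = 0.000692). Among the genes close to Acot1, Acot3 of peroxisomes differed by 1.54 ± 0.23, with 257, 183, 128, 145 and 135 against 524, 625, 437, 433 and 455. The mitochondrial Acot2 differed by 0.87 ± 0.13 (928 to 1420 against 1914 to 2338). Acot4, which acts on succinyl-CoA and related esters in peroxisomes, differed by 1.03 ± 0.20 (adjusted p = 0.0102). Here sesamin array 1 (719 to 1683 over the group) lay above episesamin array 3 (1558), so the groups overlapped, and with median scaling of the arrays the adjusted p was 0.058. Acot1 to Acot4 are similar in sequence, and how far their probe sets share signal was not tested. The remaining thioesterases did not pass. Acot12, the cytosolic acetyl-CoA hydrolase, was at 0.37 (95% interval -0.02 to 0.77), and Acot13 at -0.08 (-0.25 to 0.10).

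**Figure D2:**
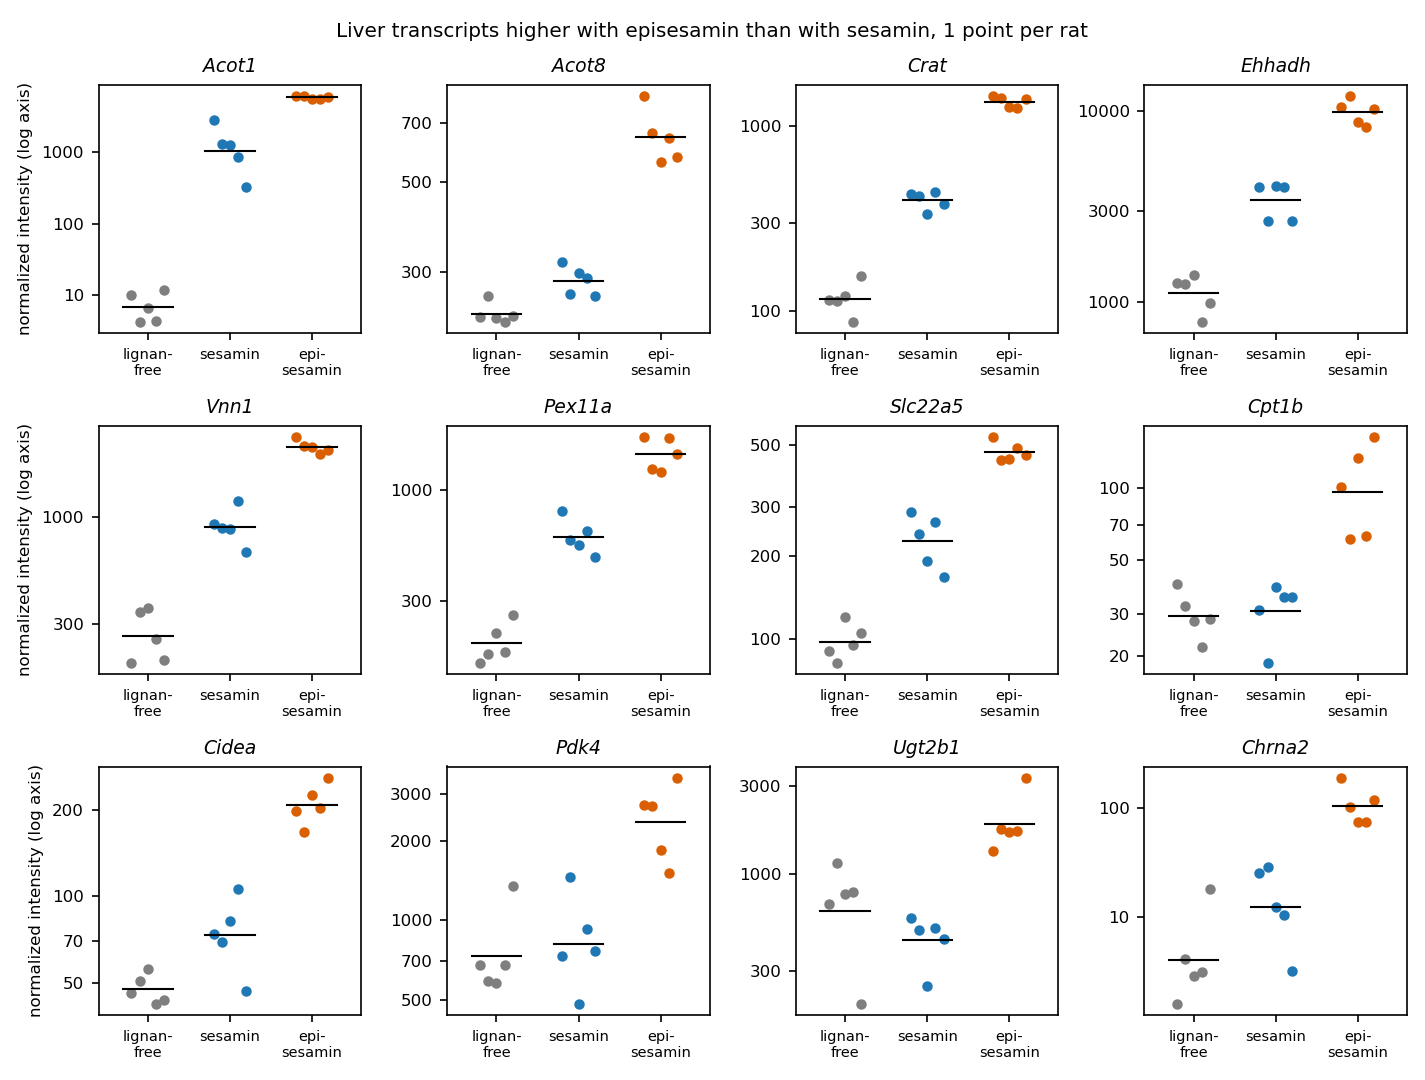
Normalized intensity (log axis) of 12 genes that were higher with episesamin, 1 point per rat for the lignan-free, sesamin and episesamin diets, with a bar at the mean of the log2 values. In each panel the 5 episesamin points lie above the 5 sesamin points, and for Acot1 the sesamin points run from 330.1 to 2804.

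In peroxisomal fatty acid oxidation, 12 of 26 tested genes were higher, none was lower and the median difference was 0.35. Ehhadh, the bifunctional enzyme that hydrates and dehydrogenates enoyl-CoA in the peroxisomal cycle, was at 4034, 2676, 4049, 4025 and 2661 with sesamin and 10490, 12070, 8850, 8291 and 10310 with episesamin. The lignan-free rats had 791 to 1391, so the 3 diets formed separate, ordered bands. The difference between the epimers was 1.53 ± 0.19, or 2.90-fold (adjusted p = 0.000337). Crat, the carnitine acetyltransferase that turns short acyl-CoA into acylcarnitine, was at 429.7, 419.7, 334, 442 and 379 with sesamin and 1461, 1420, 1270, 1260 and 1401 with episesamin. Its lignan-free levels were 87.3 to 154, and again no rat of a diet came near the next. The difference was 1.76 ± 0.19 (adjusted p = 0.000118).

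Other genes of the peroxisomal list differed less. Crot, which makes carnitine esters of medium-chain acyl groups for export from peroxisomes, differed by 0.69 ± 0.12 (3523 to 4557 against 5195 to 7046). Ech1, an isomerase for unsaturated fatty acids, differed by 0.77 ± 0.14, with sesamin array 5 (3151) low beside the other sesamin arrays. Nudt7, a peroxisomal hydrolase that cleaves CoA itself, differed by 0.87 ± 0.12 (554 to 849 against 1131 to 1416, adjusted p = 0.000734). Acad11, an acyl-CoA dehydrogenase, stood at 0.73 ± 0.10. The multifunctional enzyme Hsd17b4, the second bifunctional enzyme of the cycle, differed by 0.41 ± 0.07 with narrow groups of 3102 to 3509 and 4308 to 4585. Crot and Hsd17b4 did not pass with median scaling (adjusted p = 0.051 and 0.112). Among the members that did not pass, the long-chain acyl-CoA synthetase Acsl1 was at 0.04 with a 95% interval of -0.09 to 0.17. Another probe set of Acsl1 above the filter gave 0.21. The sterol carrier Scp2 was at -0.11 (-0.25 to 0.03). Amacr, the racemase for branched acyl-CoA, had the lowest difference of the list at -0.64 (adjusted p = 0.0786). The naming rule does not cover it, and it was picked after its value was seen.

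The mitochondrial steps followed with 11 of 30 tested genes higher, none lower and a median of 0.33. Acot2 is a member of this list as well. Slc22a5, the carnitine importer of the plasma membrane, was at 287, 239.9, 191, 265 and 167 with sesamin and 536, 443, 447, 487 and 460.4 with episesamin, against 82.1 to 121 without lignan. The difference was 1.05 ± 0.16 (adjusted p = 0.00141), and the groups did not overlap. Cpt1b, the form of carnitine palmitoyltransferase typical of muscle, was at 31.2, 18.8, 38.7, 35.3 and 35.1 with sesamin, much like the lignan-free range of 21.9 to 39.7. With episesamin it was at 100.4, 61.0, 133, 62.9 and 162, a difference of 1.47 ± 0.25 (adjusted p = 0.00456). The episesamin rats formed a lower pair, at 61.0 and 62.9, and a group of 3 at 100.4 to 162. By contrast Cpt1a, the liver form that controls entry of long-chain fatty acids, was at 2125 to 4183 with sesamin and 2473 to 3184 with episesamin. Its difference was -0.05 with an interval of -0.40 to 0.29, which covers small changes in either direction, so the threshold was missed (adjusted p = 0.918).

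Past the entry step, Cpt2 and the carnitine-acylcarnitine carrier Slc25a20 differed by 0.74 ± 0.13 and 0.62 ± 0.10. Eci1, the isomerase for double bonds in mitochondria, was at 8093, 6541, 6421, 6311 and 5312 with sesamin and 11240, 11790, 10490, 9805 and 10440 with episesamin. Every lignan-fed rat lay far above the lignan-free range of 1203 to 1749, and the difference between the epimers was 0.73 ± 0.12 (adjusted p = 0.00201). The subunits of the trifunctional protein moved alike, Hadha by 0.52 ± 0.08 and Hadhb by 0.50 ± 0.09. The thiolase Acaa2, which closes the cycle, differed by 0.58 ± 0.10, and the dienoyl-CoA reductase Decr1 by 0.48 ± 0.08. Of the acyl-CoA dehydrogenases that open the cycle, Acadvl, for very long chains, passed at 0.34 ± 0.07 (1793 to 2024 against 2292 to 2507). It did not pass without sesamin array 5 (adjusted p = 0.061). Acadm, for medium chains, had separate groups (4479 to 5422 and 5462 to 6060) but a difference of only 0.18 (interval 0.02 to 0.35, adjusted p = 0.336). With median scaling Slc25a20, Hadhb, Decr1 and Acadvl did not pass (adjusted p = 0.108, 0.0542, 0.0608 and 0.324).

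**Figure D3:**
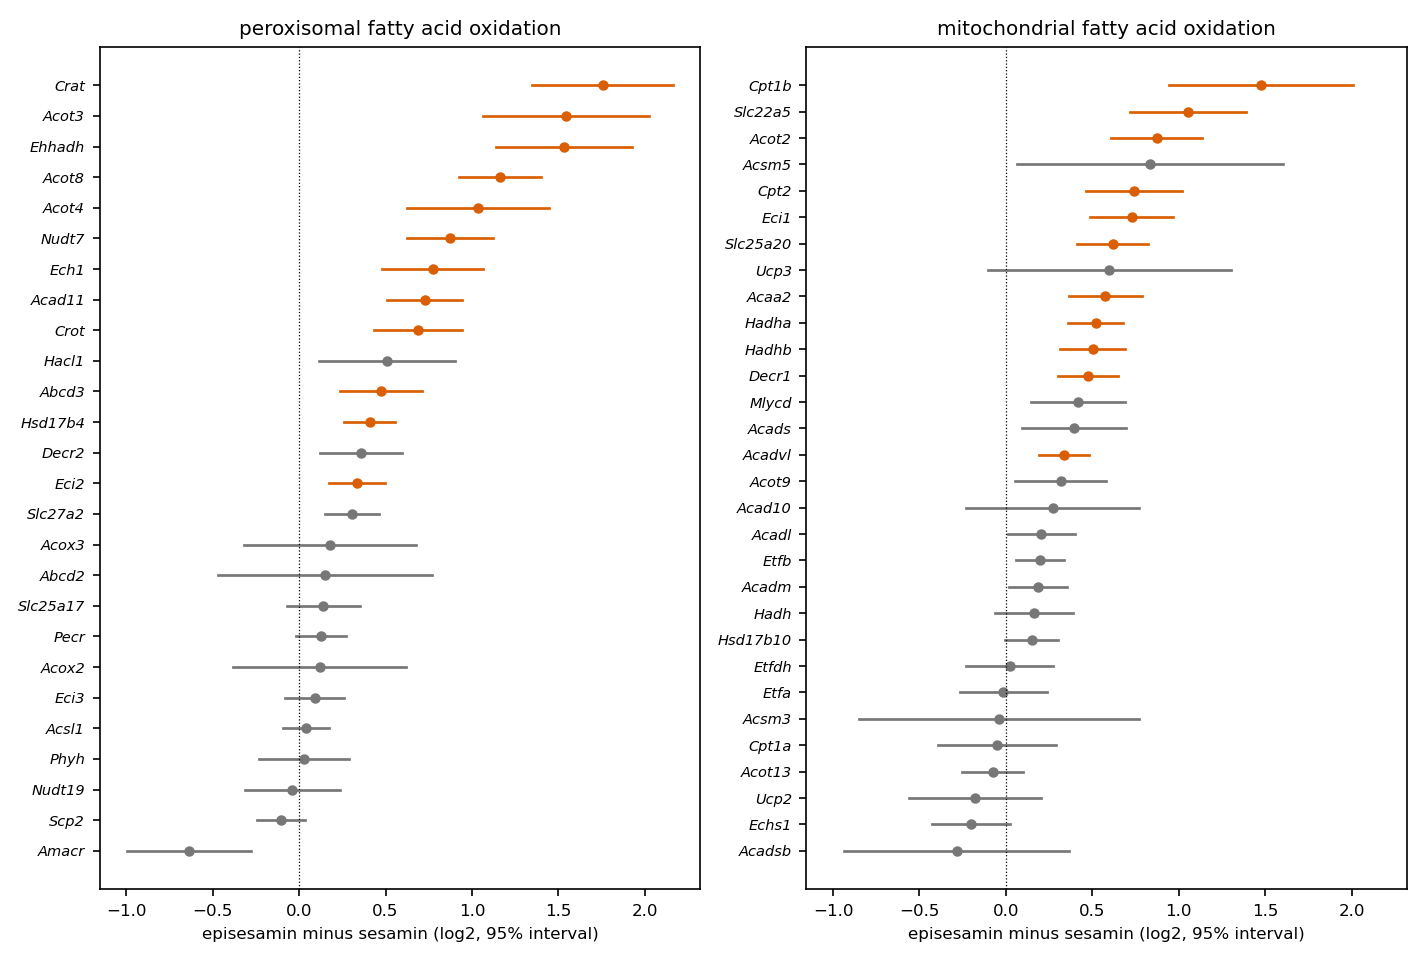
Difference between the epimers (log2, points) with 95% intervals (lines) for the 26 peroxisomal and 30 mitochondrial fatty acid oxidation genes tested, orange where the gene passed. The 12 and 11 genes that passed all lie to the right of 0, led by Crat and Cpt1b, while Cpt1a and Acsl1, each read from its brightest probe set, lie near 0.

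PPAR alpha binds DNA as a dimer with RXR at repeats of the motif AGGTCA. The 250 bases before the start of each gene were searched on both strands in the RefSeq promoter table (build GRCr8), since the oxidation and thioesterase genes that passed were all higher. Of the 25 oxidation and thioesterase genes that were higher with episesamin, 21 had an entry, and 6 of these (28.6%) held AGGTCA. Among all 95 higher genes it was found for 18 of 76 with an entry (23.7%), among the 47 lower genes for 4 of 39 (10.3%) and among all tested genes for 1152 of 9611 (12%). In the whole table the share was 14.8%. An exact copy of the direct repeat AGGTCANAGGTCA, which contains the shorter motif at both ends, was in none of the genes that passed and in 4 tested genes (0.0416%). Repeats with a changed letter, as in the Acot8 stretch below (gggtcagAGGTCA), or further from the start were not counted. The matches near 3 of the members are shown for the position of the motif, which is in capitals (AGGTCA or, read on the other strand, TGACCT). Each stretch is written 5' to 3' on the gene's own strand. The Acot8 stretch lies at chr3:173962189-173962227 on the minus strand, that of Acot4 at chr6:109399824-109399853 on the plus strand and that of Eci1 at chr10:13961132-13961185 on the plus strand.
Acot8: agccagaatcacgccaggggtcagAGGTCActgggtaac
Acot4: ggctcagcccagaagccagacctcTGACCT
Eci1: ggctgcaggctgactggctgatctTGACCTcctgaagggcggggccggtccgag
The motif begins 15 bases before the start of Acot8, 6 before that of Acot4 and 94 before that of Eci1. A match describes the letters only, and binding was not measured.

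Beyond the oxidation cycles, 7 of 18 tested PPAR alpha targets of the fasting response were higher and none lower, with a median of 0.48. Acot1, Ehhadh and Pex11a are counted here as well. Pdk4, the kinase that shuts pyruvate out of the citric acid cycle, was at 729, 1452, 482, 921 and 764 with sesamin and 2732, 2696, 1836, 1504 and 3457 with episesamin. Sesamin array 2 (1452) came close to episesamin array 4 (1504), and the lignan-free rats (576 to 1350) covered most of the sesamin range. The difference was 1.52 ± 0.29 (adjusted p = 0.0122). It did not pass when only the 2 groups were fitted (adjusted p = 0.0559). Vnn1, the pantetheinase that releases cysteamine, was at 919, 878, 873, 1193 and 675 with sesamin and 2458, 2205, 2190, 2035 and 2114 with episesamin. Its lignan-free range was 193 to 358 and the 3 diets did not overlap, with 1.29 ± 0.19 between the epimers (adjusted p = 0.00122).

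Cidea, a lipid droplet protein that enlarges droplets, was at 74.2, 69.7, 81.9, 106 and 47.1 with sesamin and 199, 167, 225, 203 and 258 with episesamin. Its difference was 1.43 ± 0.19 (adjusted p = 0.000692), and sesamin array 5 lay inside the lignan-free range of 42.4 to 56.2. In the list of lipid droplet and triglyceride breakdown genes, 3 of 24 were higher, none lower and the median was 0.21. Plin5, the perilipin that links droplets to mitochondria, differed by 0.90 ± 0.12 (34.1 to 56.6 against 80.2 to 111, adjusted p = 0.000822). Hilpda, an inhibitor of triglyceride lipase, differed by 0.59 ± 0.13 and did not pass without sesamin arrays 2, 3 and 4 or episesamin array 2 (adjusted p up to 0.0676). Plin2, the main perilipin of liver, had separate groups of 3888 to 6704 and 6754 to 7806 and a difference of 0.47, but missed the threshold (adjusted p = 0.0699).

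Of 13 genes of microsomal omega-oxidation, which oxidises the far end of fatty acids, 2 were higher. Cyp4a1, the classic clofibrate-induced omega-hydroxylase, was at 6733 to 8626 with sesamin and 10270 to 11240 with episesamin, far above the lignan-free range of 2432 to 3274. Its difference between the epimers was 0.49 ± 0.10 and did not pass without sesamin arrays 2 and 5 or episesamin array 5 (adjusted p up to 0.0726). Cyp2j4, an epoxygenase, differed by 0.87 ± 0.17 (689 to 1047 against 1427 to 1812). The related Cyp4a3 overlapped between the epimers at 0.16 (interval -0.09 to 0.41). In ketone body synthesis 1 of 7 genes was higher, the transporter gene Slc16a6, with overlapping groups and 0.65 ± 0.15. Its call was lost without sesamin arrays 1, 2, 4 and 5 or episesamin arrays 1, 2 and 3 (adjusted p up to 0.0941). Acat1, the mitochondrial acetoacetyl-CoA thiolase, did not pass at 0.31 (adjusted p = 0.194).

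Peroxisome biogenesis held 3 higher and 1 lower gene among 26, with a median of 0.08. Pex11a, which elongates and divides peroxisomes, was at 791, 579, 547, 637 and 480.4 with sesamin and 1777, 1253, 1212, 1749 and 1481 with episesamin. The lignan-free range was 153 to 256, and the epimers differed by 1.29 ± 0.23 (adjusted p = 0.00562). Another probe set of Pex11a gave 1.91. Its relative Pex11g differed by 0.73 ± 0.13 (57.3 to 85.3 against 91.3 to 134) but not with median scaling (adjusted p = 0.062). Pex19, a chaperone for peroxisomal membrane proteins, stood at 0.52 ± 0.11 and lost its call without sesamin arrays 2, 3, 4 and 5 or episesamin arrays 1, 2 and 5 (adjusted p up to 0.0722). The lower member was Hao2, a peroxisomal hydroxy acid oxidase, at -0.54 ± 0.12, which did not pass without sesamin arrays 3 and 5 or episesamin array 5 (adjusted p up to 0.0755). Hao2 is an oxidising enzyme, but it was placed in this list and not in that of peroxisomal fatty acid oxidation, where no gene was lower. In CoA synthesis and breakdown 3 of 16 genes were higher, Vnn1 and Nudt7 as above and the pantothenate kinase Pank1 at 0.44 ± 0.10. The Pank1 call was lost without sesamin arrays 2, 3, 4 and 5 or episesamin arrays 1, 2 and 5 (adjusted p up to 0.128).

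Fatty acid uptake, binding and activation had 1 higher gene among 26 (3.85%, against 1.23% of all genes tested) and a median of 0.06. It was the acyl-CoA synthetase Acsl3, at 277, 322, 275, 313 and 304 with sesamin and 800, 555, 517, 406 and 575 with episesamin. Its sesamin range overlapped the lignan-free range of 213 to 282, and all episesamin rats lay above both. The difference was 0.89 ± 0.17 (adjusted p = 0.00826, and 0.0727 with median scaling). Fabp1, the liver fatty acid binding protein, reached the highest normalized value, 16030, on 5 of the 10 arrays, which caps its difference of 0.01. Fatty acid and triglyceride synthesis had 1 higher gene of 31 (3.23%), the desaturase Fads2, at 0.59 ± 0.13. That call was lost without sesamin arrays 1, 3, 4 and 5 or episesamin arrays 2 and 5 (adjusted p up to 0.0747). Scd, the stearoyl-CoA desaturase, was at 0.08 (interval -0.06 to 0.23).

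**Figure D4:**
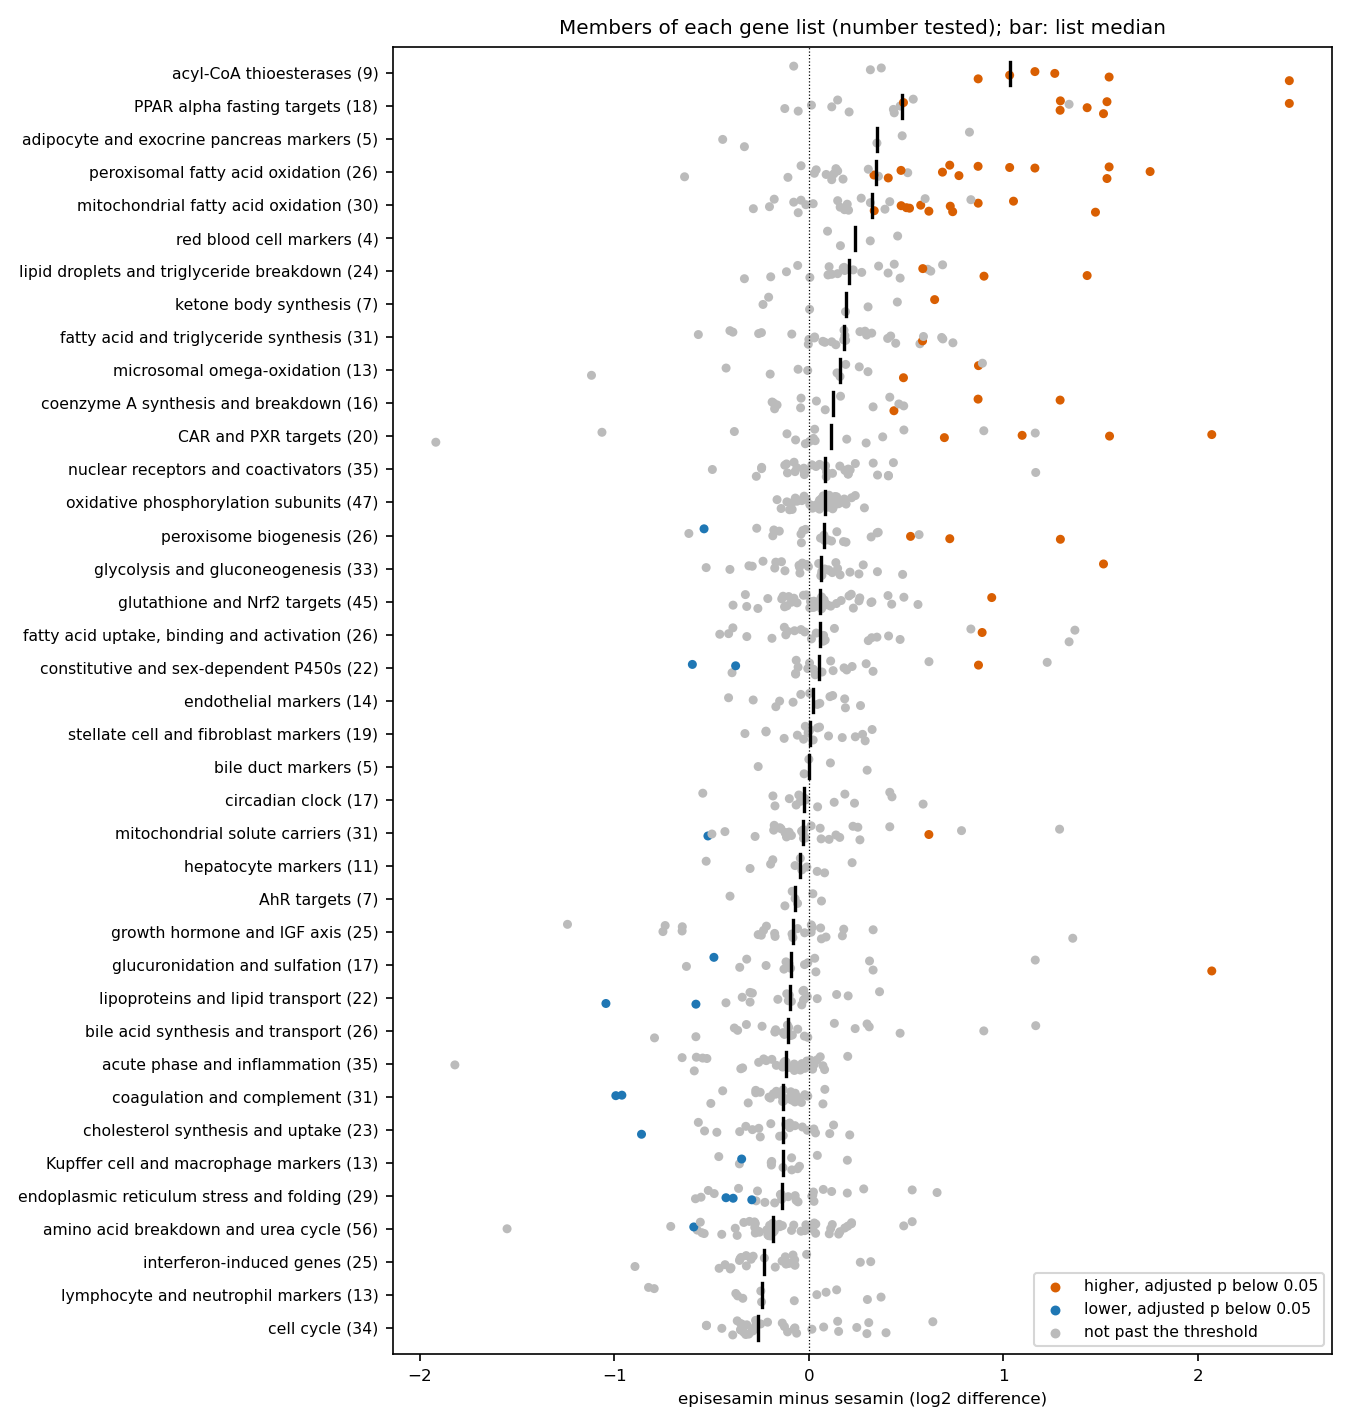
Difference between the epimers (log2) for each tested member of the 39 gene lists, 1 point per gene, with the number tested in brackets and a bar at the list median. Orange and blue points passed as higher and lower. Thioesterases (6 of 9 higher) and PPAR alpha fasting targets (7 of 18) have the highest medians. Oxidative phosphorylation (0 of 47) spans only -0.16 to 0.29, with 35 members above 0.

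Among CAR and PXR targets 4 of 20 tested genes were higher, none lower and the median was 0.11. Differences in the list ran from -1.92 to 2.07, with 9 higher and 3 lower genes at an unadjusted p below 0.05 in limma. Ugt2b1, a glucuronosyltransferase, was at 578, 502, 249, 515 and 448 with sesamin and 1336, 1770, 1699, 1726 and 3332 with episesamin. The sesamin rats lay in the lower part of the lignan-free range (199 to 1152) and every episesamin rat above the whole of it. The difference was 2.07 ± 0.39, or 4.21-fold (adjusted p = 0.00939). With the dim arrays (mean raw intensity under 200) left out it did not pass (adjusted p = 0.107). Aldh1a1, the retinaldehyde dehydrogenase, differed by 1.55 ± 0.34. Sesamin array 5 (447) stood apart from the other sesamin arrays (1497 to 1726), and the call was lost without sesamin arrays 4 and 5 or episesamin arrays 1, 2, 3 and 5 (adjusted p up to 0.0681).

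The carboxylesterase Ces2c and Por, the reductase that feeds electrons to all microsomal P450s, differed by 1.10 ± 0.24 and 0.70 ± 0.16. Ces2c lost its call without sesamin arrays 2, 4 and 5 or episesamin arrays 1, 2, 3 and 5 (adjusted p up to 0.0803) and Por without sesamin arrays 1, 2, 3 and 5 or episesamin arrays 1, 2, 3 and 5 (up to 0.106). Of 45 glutathione and Nrf2 target genes 1 was higher (2.22%, near the 1.23% of all genes tested). It was the carbonyl reductase Cbr1, at 167, 173, 153, 169 and 131 with sesamin and 326, 320.4, 466, 239 and 239 with episesamin. Its difference was 0.94 ± 0.17 (adjusted p = 0.00817), and every episesamin rat was above every sesamin rat. Without the arrays numbered 1 the adjusted p of Cbr1 was 0.0626. Of 17 genes of glucuronidation and sulfation 1 was higher, Ugt2b1 as above, and 1 lower (median -0.09). At an unadjusted p below 0.05 in limma, 1 was higher and 4 were lower. The lower gene that passed was Papss2, which makes the sulfate donor PAPS, at -0.49 ± 0.10. It did not pass with median scaling (adjusted p = 0.106). Of 22 constitutive and sex-dependent P450s 1 was higher, Cyp2j4 as above, and 2 were lower (median 0.05). The lower ones were Cyp2t1 at -0.60 ± 0.15, whose call was lost without sesamin arrays 1, 2, 4 and 5 or episesamin arrays 1, 2, 4 and 5 (adjusted p up to 0.14), and Cyp2f4 at -0.38 ± 0.09, lost without sesamin arrays 1, 2, 3 and 5 or episesamin arrays 1, 2, 3 and 5 (up to 0.119). The male-specific Cyp2c11 of that list was at -0.07 (interval -0.23 to 0.09). None of 7 AhR targets passed in limma (0 higher and 1 lower at an unadjusted p below 0.05), and the P450 gene Cyp1a2 of that list was at -0.12 (-0.54 to 0.30).

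Some of the largest differences were in genes outside these lists. Chrna2, a nicotinic acetylcholine receptor subunit, had the largest difference, 2.49 ± 0.38 (adjusted p = 0.00155). Its levels were 25.4, 28.6, 12.3, 10.4 and 3.18 with sesamin, 3 of them below the level of 17.8 used as filter, and 187, 101, 73.4, 73.7 and 117 with episesamin. With each dim sesamin array raised to that level, Chrna2 was at least 4.93-fold higher with episesamin. Spmip11, a sperm microtubule protein, was at 18.3, 40.9, 36.1, 34.4 and 22.2 with sesamin and 241, 189, 156, 158 and 98.2 with episesamin. The difference was 2.25 ± 0.37 (adjusted p = 0.00305), and 4 of the 5 sesamin levels lay within those of the lignan-free rats (2.58 to 37.7). Colq, the collagen tail of acetylcholinesterase, was at 129, 80.2, 62.5, 115 and 46.6 against 261, 241, 316, 299 and 222, with 7.96 to 26.5 in lignan-free rats. It differed by 1.64 ± 0.25 (adjusted p = 0.00141).

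Aig1, a hydrolase of fatty acid esters of hydroxy fatty acids, was at 525, 482, 418, 436 and 279 with sesamin and 1407, 1335, 1242, 1099 and 1285 with episesamin. No sesamin rat reached the lowest episesamin rat, and the lignan-free rats were at 71.8 to 164. The difference was 1.59 ± 0.19 (adjusted p = 0.000337). Hsdl2, a peroxisomal dehydrogenase-like protein, differed by 1.03 ± 0.14 (1213 to 1801 against 2510 to 3332). Mme, the peptidase neprilysin, differed by 1.37 ± 0.27, with 3 sesamin arrays under the filter level and a bound of at least 2.24-fold. The adjusted p of Mme was 0.0665 without the arrays numbered 1. Dact2, an inhibitor of Wnt and TGF-beta signalling, differed by 1.65 ± 0.34 and lost its call without sesamin array 4 (adjusted p = 0.0519). The retinol dehydrogenase Dhrs9 was dim with sesamin (3.41 to 21.0) and reached 32.4 to 60.6 with episesamin, at least 2.37-fold. Its call was lost without sesamin arrays 2, 3 and 4 or episesamin arrays 1, 2, 3, 4 and 5 (adjusted p up to 0.105). A pair of genes outside the naming rule had differences of this size but missed the threshold. These were Hdc, histidine decarboxylase, at 2.23 (adjusted p = 0.116), with 1 episesamin rat at 71.6 and the others at 364 to 1379, and the kinase Nim1k at 1.81 (adjusted p = 0.0642).

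The genes that were lower with episesamin were led by Stac3, an adaptor protein of muscle calcium channels. Its levels were 1531, 1558, 817, 1260 and 2232 with sesamin and 197, 197, 476, 297 and 445 with episesamin. The lignan-free rats, at 386 to 1361, overlapped both of these groups. Sesamin and episesamin did not overlap each other, and the difference was -2.20 ± 0.41 (adjusted p = 0.00952). Without the arrays numbered 1 the adjusted p was 0.0891. Car5a, the mitochondrial carbonic anhydrase that supplies bicarbonate to the urea cycle and gluconeogenesis, was at 143, 173, 157, 199 and 319.7 with sesamin and 58.0, 64.2, 82.6, 67.2 and 63.5 with episesamin. Of the sesamin rats 4 lay within the lignan-free range (139 to 271) and 1 above it, and all episesamin rats lay below it. Its difference was -1.43 ± 0.22, or 0.37 times the sesamin level (adjusted p = 0.00141). Egf, epidermal growth factor, was at 80.0, 54.9, 87.3, 111 and 92.5 with sesamin and 37.5, 39.8, 37.8, 43.9 and 34.1 with episesamin, or 0.498 times the sesamin level (adjusted p = 0.00364).

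Apolipoproteins supplied both lower genes among 22 of lipoproteins and lipid transport, a list in which 18 members had a difference below 0 and the median was -0.09. Apoa4, a lipoprotein of chylomicrons and high-density particles, was at 4911, 6360, 5889, 6099 and 6606 with sesamin and 3290, 2092, 3957, 3102 and 2350 with episesamin. Lignan-free rats had 7029 to 7627, so that the 3 diets formed a descending order without overlap. The difference between the epimers was -1.04 ± 0.19 (adjusted p = 0.00808). Apoa2, a main protein of high-density lipoprotein, was at 8342 to 11420 with sesamin and 5783 to 7658 with episesamin, a difference of -0.58 ± 0.10 (adjusted p = 0.00659). It did not pass when only the 2 groups were fitted (adjusted p = 0.0596). Of 23 cholesterol synthesis and uptake genes 1 was lower (4.35%, against 1.23% of all genes tested). It was the isopentenyl diphosphate isomerase Idi1, at -0.86 ± 0.19. The Idi1 call was lost without sesamin arrays 1, 3, 4 and 5 or episesamin arrays 1, 2, 3, 4 and 5 (adjusted p up to 0.105). None of 26 bile acid genes passed in limma, where the median was -0.11 and 2 higher and 3 lower were at an unadjusted p below 0.05.

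**Figure D5:**
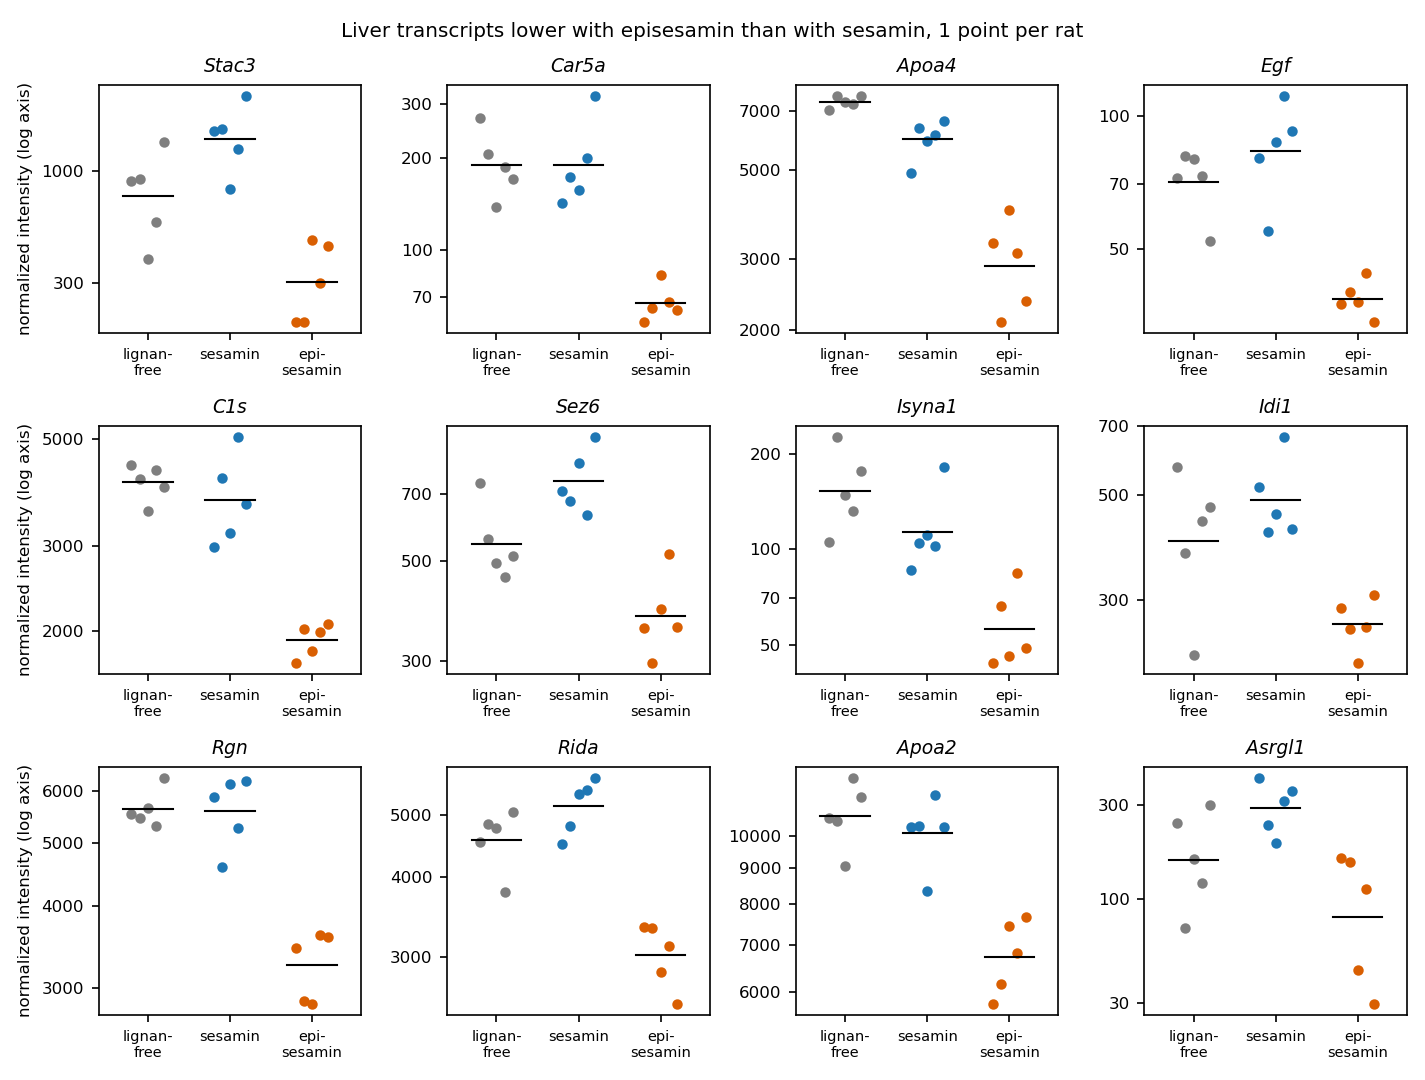
Normalized intensity (log axis) of 12 genes that were lower with episesamin, 1 point per rat for the lignan-free, sesamin and episesamin diets, with a bar at the mean of the log2 values. All 5 episesamin points lie below the 5 sesamin points in each panel, and for Car5a, Rgn and C1s the sesamin points overlap the lignan-free points.

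Complement and coagulation genes, most of them secreted by hepatocytes, had 2 lower members among 31, none higher and a median of -0.13. Of the 31 differences 29 were below 0, and 0 higher and 9 lower genes were at an unadjusted p below 0.05 in limma. C1s, a protease of the first complement component, was at 2990, 4150, 3194, 5045 and 3665 with sesamin and 1721, 2018, 1818, 1996 and 2066 with episesamin. The sesamin rats covered the lignan-free range of 3542 to 4408 and the episesamin rats lay close together below it. The difference was -0.96 ± 0.15 (adjusted p = 0.00204), and with the dim arrays (mean raw intensity under 200) left out the adjusted p was 0.0521. Its partner protease C1r differed by -0.99 ± 0.21, but sesamin array 1 (1958) lay inside the episesamin range of 1165 to 2354. The C1r call was lost without sesamin arrays 2, 3, 4 and 5 or episesamin arrays 1 and 2 (adjusted p up to 0.063). None of 35 acute phase genes passed in limma (0 higher and 6 lower at an unadjusted p below 0.05), with a median of -0.12.

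Single enzymes of amino acid and one-carbon metabolism were also among the lower genes. Of 56 genes of amino acid breakdown and the urea cycle 1 passed (1.79%), a share near the 1.23% of all genes tested. At an unadjusted p below 0.05 in limma, 0 of the 56 were higher and 16 lower. Over all 11576 genes, 753 were higher and 735 lower at that level. The list median was -0.18, with 39 differences below 0. The gene that passed was Aass, which starts lysine breakdown, at 2047 to 2900 with sesamin and 1224 to 1871 with episesamin (-0.59 ± 0.12, adjusted p = 0.015, and 0.119 with median scaling). Ass1, the urea cycle enzyme that makes argininosuccinate, had a difference of -0.37 that missed the threshold (adjusted p = 0.17). Rida, an enzyme that clears reactive imines formed in amino acid breakdown, was at 4512, 4804, 5396, 5481 and 5721 with sesamin and 3337, 3326, 2844, 3122 and 2534 with episesamin. Its difference was -0.77 ± 0.12 (adjusted p = 0.00139). Rgn, the calcium-binding lactonase regucalcin, was at 5875, 4595, 6161, 5279 and 6218 with sesamin and 3457, 2873, 2841, 3617 and 3597 with episesamin, with lignan-free rats at 5301 to 6290. Sesamin arrays 2 and 4 lay below the lignan-free range and all episesamin arrays further below, and the difference between the epimers was -0.78 ± 0.11 (adjusted p = 0.000734). Dmgdh, which oxidises dimethylglycine from choline, differed by -0.70 ± 0.14. The adjusted p of Dmgdh was 0.0568 without the arrays numbered 1. Asrgl1, an asparaginase-like enzyme, differed by -1.74 ± 0.40, yet its other probe sets gave -1.10 and 0.59 and the call was lost without sesamin arrays 1, 2, 4 and 5 or episesamin arrays 3, 4 and 5 (adjusted p up to 0.105).

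Chaperones of the endoplasmic reticulum were lower by small amounts, 3 of 29 genes in the list of endoplasmic reticulum stress and folding (median -0.14). At an unadjusted p below 0.05 in limma, 0 genes of that list were higher and 8 lower. The 3 that passed were the disulfide isomerase Pdia6 at -0.29 ± 0.07 and the co-chaperones Dnajb11 at -0.39 ± 0.09 and Dnajc3 at -0.43 ± 0.10. Their groups did not overlap, but Pdia6 lost its call without sesamin arrays 1, 3, 4 and 5 or episesamin arrays 1, 2, 3, 4 and 5 (adjusted p up to 0.131) and Dnajb11 without any of the 10 arrays (up to 0.124). Dnajc3 lost it without sesamin arrays 1, 3, 4 and 5 or episesamin arrays 1, 2, 4 and 5 (up to 0.112), and none of the 3 passed with median scaling (adjusted p = 0.36, 0.313 and 0.292). A2ml1, a protease inhibitor like alpha-2-macroglobulin, was at 32.4, 39.2, 23.8, 61.0 and 18.5 with sesamin and 3.75, 2.07, 14.2, 7.78 and 8.19 with episesamin, all of the latter below the filter level, so that it was at least 1.80-fold higher with sesamin. Its difference of -1.63 ± 0.39 lost its call without sesamin arrays 1, 2, 3, 4 and 5 or episesamin arrays 1, 2, 4 and 5 (adjusted p up to 0.145). Doc2b, a calcium sensor of vesicle release, was at 17.7 to 27.1 and 5.23 to 7.27, again with every episesamin array below the filter level and a bound of at least 1.29-fold. Its call was lost without any of the 10 arrays (adjusted p up to 0.105). Other lower genes at the edge of the threshold were Sez6, first known from seizure-stimulated brain cells, at -0.98 ± 0.21, and Isyna1, which makes inositol phosphate from glucose phosphate, at -0.95 ± 0.21. Sez6 did not pass without sesamin arrays 3 and 5 or episesamin arrays 1, 2 and 5 (adjusted p up to 0.0778) and Isyna1 without sesamin arrays 3 and 5 or episesamin arrays 1, 3 and 5 (up to 0.0757).

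Among the markers of cells other than hepatocytes 1 gene passed. In whole tissue, fewer cells of a type and less RNA per cell cannot be told apart. The gene was Mrc1, the mannose receptor of Kupffer cells and sinusoidal endothelium, at 584, 614, 669.5, 685 and 547 with sesamin and 469, 503, 473, 477 and 505 with episesamin. Its difference was -0.34 ± 0.08 (adjusted p = 0.0455), and the call was lost without sesamin arrays 1, 2, 3 and 4 or episesamin arrays 1, 2, 3, 4 and 5 (adjusted p up to 0.135). Of 13 Kupffer cell and macrophage markers 11 had a difference below 0, the median was -0.13, and their summed level ran from 5770 to 8777 with sesamin and from 5685 to 6773 with episesamin. C1qa was at -0.36 (adjusted p = 0.239). Endothelial markers had a median of 0.02, although Lyve1 of the sinusoids was at -0.41 (adjusted p = 0.0913). Summed endothelial levels were 4609 to 5016 with sesamin and 4395 to 4711 with episesamin. Summed hepatocyte markers were 95938 to 99684 and 90571 to 99712. Of the lymphocyte and neutrophil markers Cd3d, Cd8a, Cd8b and Cxcr2 stayed below the filter level, and the 13 tested had a median of -0.24 without any that passed in limma (0 higher and 1 lower at an unadjusted p below 0.05). Of the adipocyte and exocrine pancreas markers Adipoq and Prss1 stayed below the filter level, and 5 of 14 on the array were tested. Their median was 0.35 and none passed in limma (2 higher and 1 lower at an unadjusted p below 0.05), with the elastase gene Cela1 at 0.48 and Cfd of fat cells at -0.44. Their summed level ran from 573 to 977 with sesamin and from 780.5 to 1071 with episesamin. The part of cell composition in the differences above was not tested.

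Among 31 mitochondrial solute carriers 1 was higher, Slc25a20 as above, and 1 lower (median -0.03). The lower one was Slc25a15, the ornithine carrier of the urea cycle, at 1464 to 2338 with sesamin and 1135 to 1420 with episesamin (-0.52 ± 0.12). It did not pass without sesamin arrays 2, 3, 4 and 5 or episesamin arrays 1, 2, 4 and 5 (adjusted p up to 0.112).

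Several lists held no gene that passed in limma. Over all genes 1488 of 11576 were at an unadjusted p below 0.05, and the same count is given for each of these lists. Oxidative phosphorylation had 47 tested subunits, 8 higher and 0 lower at an unadjusted p below 0.05 and a median of 0.08. That list does not hold every subunit. Ndufa3, a complex I subunit outside it, passed as higher, at 2202 to 2809 with sesamin and 3865 to 4880 with episesamin. Nuclear receptors and coactivators had 35 tested genes, 3 higher and 1 lower such genes and a median of 0.08. Within that list Creb3l3, a fasting-induced transcription factor of liver, had separate groups of 2841 to 3805 and 4150 to 5494 at 0.44 but missed the threshold (adjusted p = 0.0741). Genes of the growth hormone and IGF axis (25 tested, 1 higher and 2 lower such genes, median -0.08) and the circadian clock (17 tested, 0 higher and 1 lower such genes, median -0.02) gave no call. Interferon-induced genes (25 tested, 0 higher and 2 lower such genes) and cell cycle genes (34 tested, 0 higher and 0 lower such genes) had medians of -0.23 and -0.26. A missed threshold does not show equal levels.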

How the data were processed

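Liver RNA of single rats was measured on Affymetrix arrays from total RNA by way of biotin-labelled cRNA, per the labels' protocols. The authors deposited a linear intensity for each probe set on every array, and 31099 probe sets were listed. Arrays differed in scale. The name of the software that made the values was not given in the sources used here. All 20 arrays were quantile normalized, 5.85 (the 20th percentile) was added and log2 taken. A level above 17.8 (the 40th percentile) on 5 arrays was required, and only probe sets with 1 symbol were used (20832, against 436 with several and 9831 not listed, less control probe sets). Each gene was read from its probe set of highest mean, leaving 11576 genes. Of the 20826 probe sets used, 20758 matched the RefSeq GRCr8 gene table, and no symbol changed.

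The model had 1 mean for each of the 4 diets over the 20 arrays (limma 3.58.1, R 4.3.3), with 2.59 prior and 16 residual degrees of freedom. All tests are two-sided, the Benjamini-Hochberg adjustment runs over all genes, and intervals cover 95%. The fit was tested on simulated data. Of 100 log2 changes of 0.5, 35 were recovered (35%), and of 100 changes of 1, 77 were (77%). Beside these true calls there were 14 false calls, a larger share of the calls than the adjusted p threshold is meant to allow. Brightness and the actin ratio were compared by exact permutation. Alternatives are listed in the closing section.

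The comparison, the 39 gene lists and the naming rule were chosen with earlier results of these data known. The rule names the 16 largest increases and 12 largest decreases among genes that passed with groups that do not overlap. In each list it takes the passing members in order of adjusted p, 4 at most, and at most 2 others by their level, of which not all are described. Uncharacterised loci are passed over. Every other named gene was picked after its values were seen. These were Hdc, Nim1k, Amacr, Acot4, Hsdl2, Rida, Dmgdh, Cpt1a, Ndufa3, Gpd1, Gpd2, Aqp7, Aqp9, Abhd1, Lpcat3, Mpc1 and C4bpb. Further members of the oxidation lists and some cell markers were picked in the same way.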

Additional observations from a re-analysis of the deposited data

Results flagged for a closer look

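Groups of 5 rats were examined for 85 of the 142 genes that passed, some other genes, array brightness and the actin ratio. In 11 of these 212 groups a single array stood apart from its group by Dixon's test at 95%. Chance alone gives about 10.6 such groups. With sesamin, Aldh1a1 was at 447.1 on array 5 (the others at 1497 to 1726), Ech1 at 3151 on array 5 (4470 to 5045), C1r at 1958 on array 1 (3654 to 4275), Cyp2f4 at 657.7 on array 4 (798 to 842) and Slc16a6 at 43.24 on array 3 (28.3 to 30.4). With episesamin, Acat1 was at 3865 on array 5 (5152 to 5290), Hao2 at 3042 on array 5 (3780 to 4063), C4bpb at 2541 on array 3 (2917 to 3074), Cyp2t1 at 169.3 on array 1 (254 to 294), Dmgdh at 280.7 on array 1 (366 to 400) and Hilpda at 152 on array 2 (94.8 to 106).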

How the results depend on the processing

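All 142 genes that passed kept their direction under the settings in which they were tested. Where probe sets were tested singly, only the first probe set of each gene was compared. Of the 65 further probe sets of these genes, 60 had the same sign. The counts of higher and lower genes (95 and 47) moved by more than 1.5-fold to 45 and 20 with median scaling, 7 and 5 with no normalization between arrays, 61 and 20 with only the 2 groups in the fit, 58 and 20 with the actin ratio as covariate and 56 and 21 without the arrays numbered 1. The lower count alone moved to 31 with no filter on low values, 80 with trended and robust eBayes and 29 with the arrays under a mean raw intensity of 200 left out. Both counts held within 1.5-fold for an offset of 16, no offset, the 60th percentile filter, probe sets averaged per gene, probe sets tested singly, array weights and brightness as covariate. With the replicate number as a block, 99 were higher and 56 lower (119 of the 142 kept). Deviations of same-numbered rats correlated at 0.247 for number 1 and -0.0296 to 0.0346 for the others (at most 0.0677 between different numbers), so the numbers were not taken as pairs. Leaving out single arrays gave 62 to 90 higher and 22 to 43 lower genes. Without normalization the median of all genes shifted to -0.17. Of 85 genes that passed and were followed over 25 settings, 9 passed in all: Acot1, Aig1, Apoa4, Car5a, Chrna2, Crat, Egf, Ehhadh and Spmip11. The actin ratio difference ran from -0.202 to -0.0796 with single arrays left out. Signs turned for genes that had not passed: Acsl1 (-0.0361), Fabp1 (-0.0621) and Scd (-0.0461) without normalization, Fabp1 (-0.00098) without sesamin array 2, Cpt1a without sesamin array 3 (0.00388), sesamin array 4 (0.0647) or episesamin array 5 (0.00204), and Cyp1a2 (0.00402) without episesamin array 5. Over all single arrays left out, Fabp1 ran from -0.00098 to 0.0269, Cpt1a from -0.179 to 0.0647 and Cyp1a2 from -0.249 to 0.00402. The cause was not tested. The number of rats and signal near background limit dim genes most.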

Other observations

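Genes of glycerol handling, picked after their values were seen, differed between the epimers. Gpd1, the cytosolic glycerol phosphate dehydrogenase, was at 3610, 4674, 3172, 3029 and 4433 with sesamin and 5693, 6259, 5004, 5732 and 6854 with episesamin, without overlap (0.66 ± 0.13, adjusted p = 0.0122). Its mitochondrial partner Gpd2 was at 60.6 to 116 and 147 to 235 (0.96 ± 0.20, adjusted p = 0.0198). Of the glycerol channels, Aqp7, known from fat cells, was higher with episesamin at 128, 103, 148, 85.2 and 81.8 against 52.0, 40.2, 32.8, 50.5 and 23.9 (1.34 ± 0.32, adjusted p = 0.0407). Aqp9, the channel of hepatocytes, was lower at 1580, 1569, 1517, 1396 and 1548 against 2648, 1984, 2041, 2423 and 1743 (-0.49 ± 0.10, adjusted p = 0.0228). The Gpd2 call was lost without episesamin arrays 1 and 5 (adjusted p up to 0.0576), the Aqp7 call without sesamin arrays 2, 3, 4 and 5 or episesamin arrays 1, 2, 3, 4 and 5 (up to 0.122) and the Aqp9 call without sesamin array 4 or episesamin array 4 (up to 0.0697), each left out singly. With median scaling none of the 4 passed (adjusted p = 0.09, 0.108, 0.0873 and 0.15).

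Abhd1, a little studied hydrolase-fold protein, had the second lowest adjusted p of all genes. It was at 1085, 976, 1179, 990.4 and 1015 with sesamin and 1966, 2110, 2007, 1661 and 1852 with episesamin, with 645 to 855 in lignan-free rats, a difference of 0.87 ± 0.09 (adjusted p = 9.9e-05). Another of its probe sets gave 0.86. Lpcat3, which places polyunsaturated fatty acids in phospholipids, was at 1600 to 2182 with sesamin and 2657 to 2966 with episesamin (0.59 ± 0.10, adjusted p = 0.00254, and 0.106 with median scaling). Mpc1, a subunit of the mitochondrial pyruvate carrier, was lower, at 1994 to 2432 with episesamin against 2588 to 3440 with sesamin (-0.45 ± 0.10, adjusted p = 0.0261). Its call was lost without sesamin arrays 3, 4 and 5 or episesamin arrays 2 and 5 (adjusted p up to 0.0768). C4bpb, a chain of the complement inhibitor C4b-binding protein, was lower by -0.49 ± 0.11 and lost its call without sesamin arrays 2, 3 and 4 or episesamin arrays 1, 2, 3, 4 and 5 (adjusted p up to 0.118).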
